A study of Arabidopsis thaliana with 36 samples.

Results

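The 10 genes described here encode the histone H3 chaperones and assembly factors of Arabidopsis. They are HIRA (AT3G44530), UBN1 (AT1G21610), UBN2 (AT1G77310) and CABIN1 (AT4G32820) of the HIRA complex, ATRX (AT1G08600), the pair ASF1A (AT1G66740) and ASF1B (AT5G38110), and FAS1 (AT1G65470), FAS2 (AT5G64630) and MSI1 (AT5G58230) of chromatin assembly factor 1 (CAF-1). Their rule is a list of locus identifiers and uses no measured value, although earlier results of these data were known when the list was drawn up, and all 10 were found among the 27655 genes of the deposited table. RNA-seq was done on whole seeds of the h3.3ko mutant and of the Columbia wild type (Col) at 6 time points, with 3 libraries in each of 12 groups. Seeds were sampled mature (MS), after cold stratification of 12 h (S12h), 24 h (S24h) or 48 h (S48h), and after a further 12 h (G12h) or 24 h (G24h) under germination conditions. In h3.3ko, the CRISPR mutant alleles htr4 and htr5 were combined with the T-DNA allele htr8, so that each gene coding for histone H3.3 carries a mutation. Per the study's methods, the mutant seeds were sorted as seeds without mCherry signal from mother plants heterozygous for a rescuing pHTR5::HTR5 transgene in the mutant background, so they developed on rescued mothers. Col carried none of these alleles, and seeds of both genotypes were stored after harvest before use. Per the study, Col seeds had completed germination by the last time point and the mutant seeds had not, so genotype and developmental stage cannot be told apart there.

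Histone chaperones hand H3 and H4 to DNA. The HIRA complex and ATRX place the variant H3.3 outside of replication, CAF-1 places the canonical H3.1 behind replication forks, and ASF1 passes H3-H4 dimers on to both routes. The embryo of a dry seed does not divide, and the cell cycle restarts during germination. These are background statements and were not measured here.

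Values are TPM, transcripts scaled to a library total of 1000000, in which the authors divided reads by the length of the whole gene, introns included. Library depth was 17.0 to 19.3 M recovered reads. The label of the mutant was checked on the H3.3 gene AT5G10980, which had 2.02 ± 0.84 TPM in h3.3ko and 137 ± 5.74 TPM in Col at MS (SD, n = 3 each), and on AT4G40030, which had 26.4 ± 5.89 TPM in h3.3ko and 134 ± 7.71 TPM in Col. The third H3.3 gene, AT4G40040, had 298 ± 14.7 TPM in h3.3ko and 290 ± 1.94 TPM in Col at MS, and it was called lower in h3.3ko at S12h, S24h, G12h and G24h. The 8 seed storage protein genes summed to 332000 to 349600 TPM in h3.3ko and 98750 to 102800 TPM in Col at MS, and to 156400 to 184200 TPM in h3.3ko and 231 to 456 TPM in Col at G24h. Because TPM is a share of a fixed total, such abundant transcripts bear on every other value, and each comparison was repeated without them. Of the 3 endosperm markers, MAN7 and EXPA2 were called higher and EPR1 lower in h3.3ko at MS. Summed, the markers ran from 1438 to 1983 TPM in h3.3ko and from 8373 to 10570 TPM in Col at MS. At S48h all 3 were called lower in h3.3ko, where 17.8% of all genes were. At G24h EPR1 and EXPA2 were called lower, and the summed markers ran from 303 to 341 TPM in h3.3ko and from 1701 to 2376 TPM in Col. EXPA2 was at 0 in all 3 Col libraries at MS. The part of the endosperm in the results below was not tested, and in whole seeds fewer cells of a type and less RNA per cell cannot be told apart.

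Across the 6 time points, 6 of the 60 tests of a member called it lower in h3.3ko than in Col and 0 called it higher. Over all 19052 tested genes, 17.7% of such tests called a gene lower and 12.2% called one higher. The 0 higher calls depended on the scale, with 6 higher calls when the pseudocount was 0.1 TPM. Tests were made with limma on log2(TPM + 1), which understates the change of low genes, and a call needed a Benjamini-Hochberg adjusted p under 0.05 and a log2 fold change above 1 in size. The lower calls were ATRX and ASF1A at S12h, ATRX and MSI1 at S24h, and FAS1 and FAS2 at G24h. They also depended on the scale. The 6 fell to 2 under median-of-ratios scaling, 2 under quantile normalization, 2 without the storage protein genes and 3 by voom on recovered reads. At MS, S48h and G12h no member was called, where 19.2%, 35.6% and 27.7% of all genes were called in one or other direction.

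**Figure D1:**
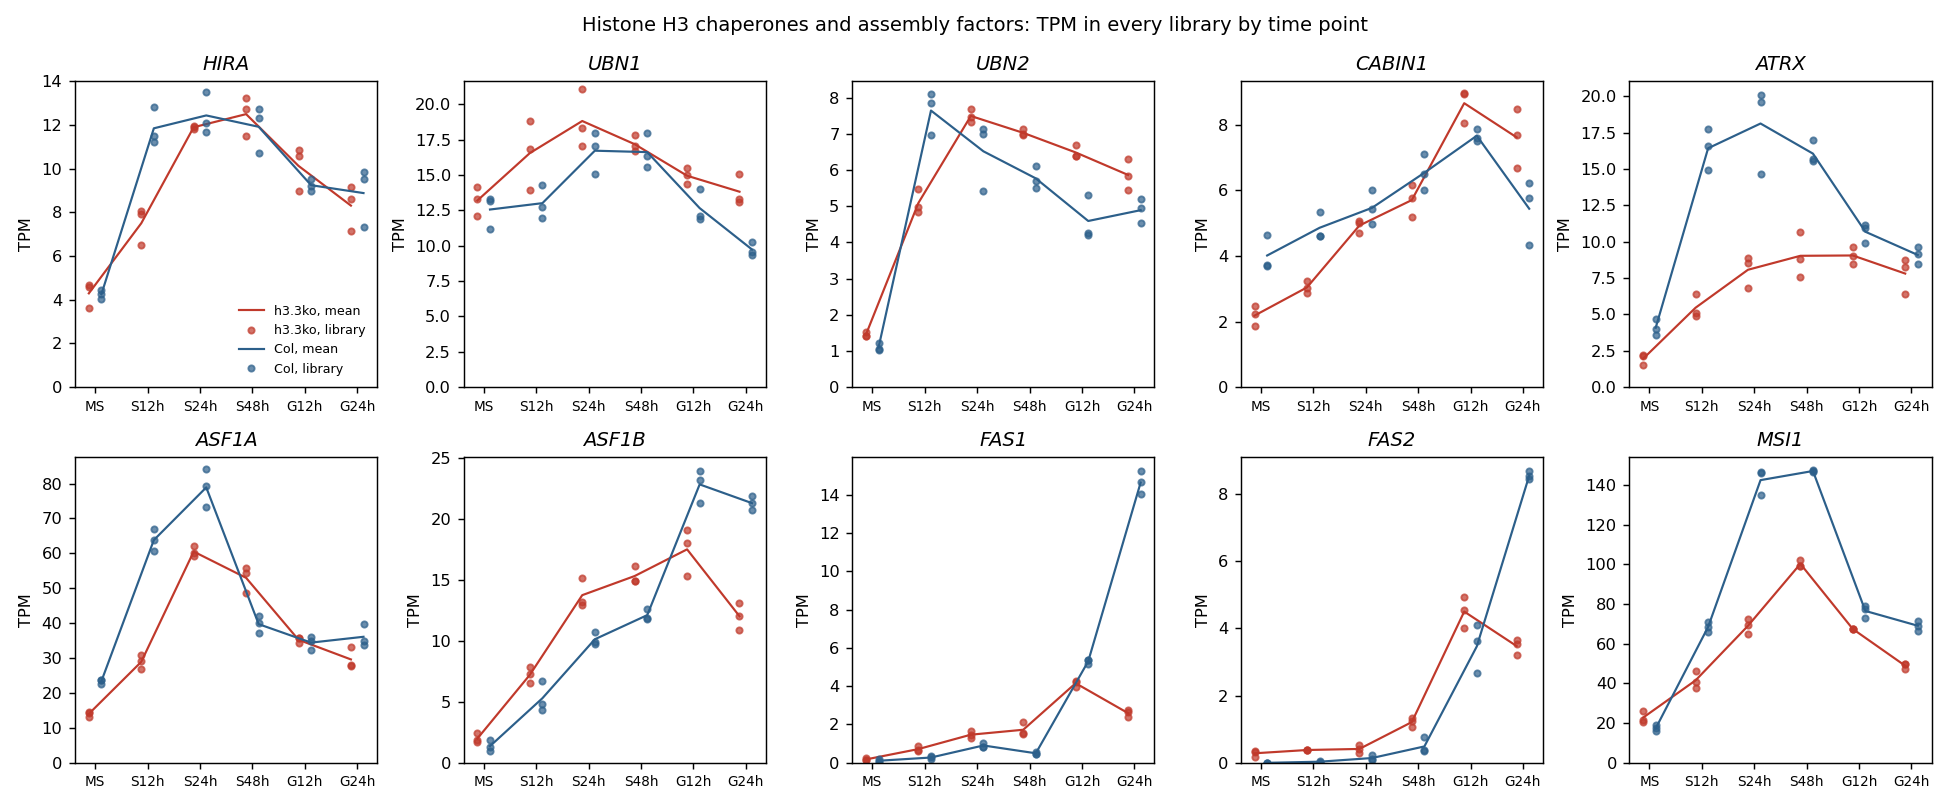
TPM (vertical axes, starting at 0, a separate scale for each gene) of the 10 genes at the 6 time points (horizontal axes) in h3.3ko (red) and Col (blue), where points are libraries and lines join group means. FAS1 and FAS2 reached 14.6 and 8.53 TPM in Col at G24h and stayed below these levels in every h3.3ko library, and ATRX was lower in every h3.3ko library than in every Col library from MS to G12h.

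**Figure D2:**
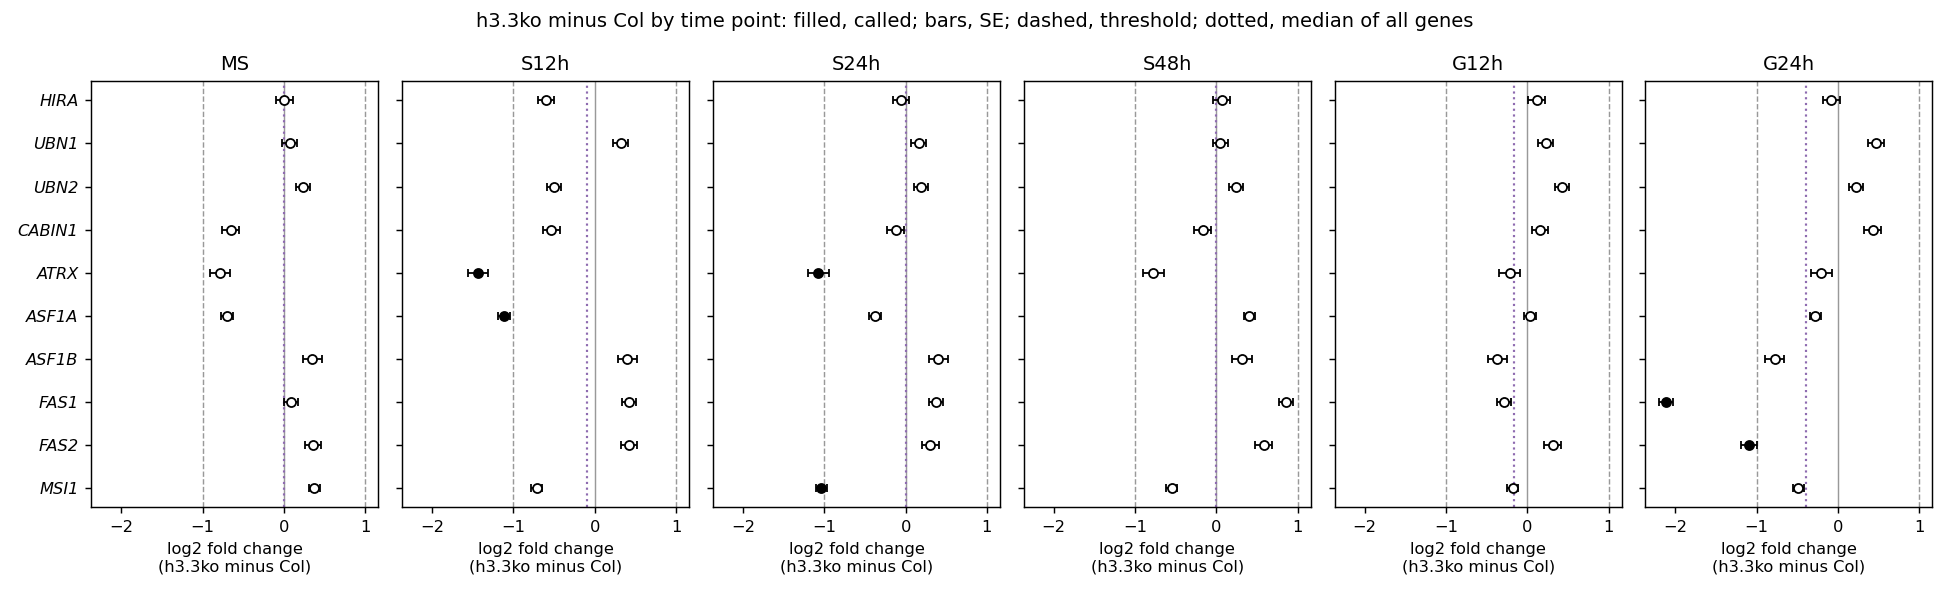
Log2 fold change of h3.3ko minus Col (horizontal axes, log2(TPM + 1) scale) for each gene at each time point, with the SE as bars, called genes filled, the threshold of 1 dashed and the median of all tested genes dotted. The 6 filled points lie at S12h, S24h and G24h, and all 6 are below -1.

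FAS1 and FAS2 encode the large and the middle subunit of CAF-1. Both were near the limit of detection in mature seeds, and both ended lower in h3.3ko than in Col, FAS1 by more than FAS2. At G24h FAS1 had 2.39, 2.76 and 2.63 TPM in the h3.3ko libraries, against 14.0, 15.2 and 14.7 TPM in the Col libraries. The groups did not overlap, and all Col libraries were several times above all h3.3ko libraries. FAS1 was thus lower in h3.3ko than in Col by 2.12 ± 0.09 on the log2 scale (SE; adjusted p = 1.97e-20, limma), beside a median of -0.39 over all genes and 29.4% of genes called lower at that time. FAS2 had 3.66, 3.21 and 3.54 TPM in h3.3ko and 8.42, 8.66 and 8.51 TPM in Col at G24h, again without overlap. Its log2 fold change was -1.09 ± 0.10 (adjusted p = 2.5e-11), and the call was lost at -0.81 under median-of-ratios scaling, -0.64 under quantile normalization, -0.88 when storage protein genes were removed and -0.99 by voom on recovered reads. FAS1 stayed called under each alternative that could test it, from -2.45 with a pseudocount of 0.1 TPM to -1.80 under median-of-ratios scaling.

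During stratification the order was the other way round, at levels of few reads. FAS1 had 68, 95 and 65 reads in h3.3ko at S48h and 22, 18 and 18 reads in Col, which is 1.51, 2.13 and 1.54 TPM in h3.3ko and 0.56, 0.47 and 0.47 TPM in Col. The groups did not overlap. The log2 fold change of 0.86 ± 0.09 (adjusted p = 1.28e-10) was under the threshold with the pseudocount of 1 TPM, and it was called at 1.60 with a pseudocount of 0.1 TPM and at 1.76 when the recovered reads were fitted with voom. At MS FAS1 had 7, 13 and 8 reads in h3.3ko and 3, 5 and 10 reads in Col, which overlap. FAS2 had 6, 13 and 12 reads in h3.3ko at MS and 0 reads in each Col library. With Col set at the floor of 3 reads per library, the mean level in h3.3ko was at least 3.6-fold that in Col. At S12h FAS2 had 38 reads over the h3.3ko libraries and 3 over the Col libraries, a ratio of 11.7 with an exact 95% interval of 3.71 to 59.3, which covers counting error only. Its log2 fold changes at the 4 time points from MS to S48h were 0.36, 0.42, 0.31 and 0.58, none called, whereas with a pseudocount of 0.1 TPM they were 1.90, 1.89, 1.12 and 1.22, all called. These fitted values rest on the pseudocount and are no bounds.

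The FAS1 gene lies on chromosome 1 from 24319396 to 24324091 (minus strand) and FAS2 on chromosome 5 from 25833165 to 25836400 (plus strand) in assembly TAIR10.1. Because the 2 genes moved together over the 12 groups (Pearson r of 0.95 over group means of log2(TPM + 1), a description), the 250 bases before each gene start are shown from the RefSeq genome of TAIR10.1, read 5′ to 3′ on the strand of the gene. They are chr1:24324092-24324341 (minus strand) for FAS1 and chr5:25832915-25833164 (plus strand) for FAS2, and capitals mark E2F words, the letters that the E2F cell cycle factors of plants and animals are known to bind.
FAS1 upstream: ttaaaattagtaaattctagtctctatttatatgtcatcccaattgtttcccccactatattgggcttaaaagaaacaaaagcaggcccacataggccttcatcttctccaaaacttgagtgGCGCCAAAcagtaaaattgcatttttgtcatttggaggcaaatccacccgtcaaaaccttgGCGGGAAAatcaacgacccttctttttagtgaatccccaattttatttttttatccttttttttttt
FAS2 upstream: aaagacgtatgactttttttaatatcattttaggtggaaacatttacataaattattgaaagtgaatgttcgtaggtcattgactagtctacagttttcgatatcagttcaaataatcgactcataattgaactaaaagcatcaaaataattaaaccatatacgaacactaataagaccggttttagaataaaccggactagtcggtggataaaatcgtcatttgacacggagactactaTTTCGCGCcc
The words searched on both strands were TTTCCCGC, TTTCCCGG, TTTGGCGC, TTTGGCGG, TTTCGCGC, TTTCGCGG, TTTGCCGC and TTTGCCGG. FAS1 held 2 words, both on the other strand, beginning 128 and 67 bases before the gene start. FAS2 held 1 word on its own strand, 10 bases before the start, and UBN1 held 1 word, 165 bases before its start. Thus 3 of the 10 windows held a word, against 768 of 27443 windows of all nuclear genes (2.8%). A match describes the letters only.

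MSI1 encodes the small WD40 subunit of CAF-1, which is also a subunit of Polycomb complexes. During stratification MSI1 was lower in h3.3ko than in Col, where FAS1 and FAS2 were higher. It was the most abundant member per exonic length in h3.3ko at every time point, at 105 ± 1.97 TPM recomputed on exonic length at S48h. In TPM as deposited, MSI1 had 65.2, 69.4 and 72.6 in h3.3ko at S24h, against 147, 135 and 146 in Col. Every h3.3ko library was below every Col library. The log2 fold change was -1.04 ± 0.07 (adjusted p = 8.85e-15), with 16.1% of all genes called lower at S24h. The call was lost at -0.99 without h3.3ko S24h replicate 1, at -0.94 under median-of-ratios scaling, -0.70 under quantile normalization, -0.95 by voom on recovered reads and -0.77 without the storage protein genes. At MS the difference was 0.37 ± 0.07, higher in h3.3ko and not called, so the sign at MS differed from that at the 5 later times. At S48h MSI1 had 102, 99.4 and 99.2 TPM in h3.3ko and 147, 147 and 148 TPM in Col, without overlap, and the log2 fold change of -0.55 ± 0.07 was under the threshold. At G24h it was lower in h3.3ko, as FAS1 and FAS2 were, with 47.4, 49.8 and 49.6 TPM in h3.3ko. Col had 66.7, 69.0 and 71.6 TPM there, without overlap, and the difference was not called. MSI1 lies on chromosome 5 from 23556012 to 23558245 and overlaps the gene FHIT on the opposite strand by 132 bp, and the strand setting of the counting is not given in the sources used here. FHIT was at 4.91 ± 0.18 TPM in h3.3ko and 22.8 ± 0.89 TPM in Col at S48h, and its part in the MSI1 values was not tested.

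Per exonic length, FAS1 stood at 5.71% ± 0.28 of the MSI1 level in h3.3ko and at 22.8% ± 0.85 in Col at G24h (SD, n = 3 each). At S48h it stood at 1.86% ± 0.40 in h3.3ko and 0.36% ± 0.04 in Col. The libraries of the 2 genotypes did not overlap at either time.

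ASF1A (named SGA2 in the annotation) and ASF1B encode the small chaperone that brings H3-H4 to HIRA and CAF-1. ASF1A was lower in h3.3ko early and ASF1B was not. At S12h ASF1A had 30.8, 26.8 and 29.2 TPM in h3.3ko, against 63.7, 67.1 and 60.7 TPM in Col. The highest h3.3ko library was below the lowest Col library. The log2 fold change was -1.12 ± 0.07 (adjusted p = 7.68e-15), beside a median of -0.09 over all genes and 14.6% of genes called lower. The call was lost under 4 other settings, at -0.85 under median-of-ratios scaling, -0.73 under quantile normalization, -0.78 without the storage protein genes and -0.87 by voom. ASF1A was also lower at MS, with 14.5, 14.4 and 13.2 TPM in h3.3ko and 22.7, 23.8 and 23.7 TPM in Col, a log2 fold change of -0.70 ± 0.07. At S48h the order was reversed, with 54.4, 55.9 and 48.7 TPM in h3.3ko and 41.9, 40.2 and 37.1 TPM in Col, a log2 fold change of 0.41 ± 0.07. In neither case did the groups overlap, and neither difference was called.

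On the TPM scale ASF1B had its highest mean at G12h in both genotypes, where its libraries overlapped with those of S48h in h3.3ko and of G24h in Col. At G24h it had 12.1, 10.9 and 13.1 TPM in h3.3ko and 21.3, 21.9 and 20.7 TPM in Col. Each h3.3ko library was below each Col library, and the log2 fold change of -0.78 ± 0.12 (adjusted p = 5.15e-07) missed the threshold. From S24h to S48h the groups also did not overlap, with ASF1B higher in h3.3ko by 0.40 ± 0.12 and 0.32 ± 0.12 on the log2 scale. Per exonic length, ASF1B made up 14.9% ± 2.38 of the ASF1 pair in h3.3ko and 6.7% ± 2.04 in Col at MS, and 33.4% ± 1.38 in h3.3ko and 42.2% ± 2.1 in Col at G24h (SD, n = 3 each). ASF1A lies on chromosome 1 from 24892340 to 24893876 and ASF1B on chromosome 5 from 15208358 to 15210335.

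ATRX encodes a chromatin remodeller known for H3.3 deposition apart from HIRA, and it lies on chromosome 1 from 2723677 to 2733613. Its difference was the largest among the members in size at MS, S12h and S24h on the log2(TPM + 1) scale. ATRX had 4.88, 5.11 and 6.38 TPM in h3.3ko at S12h, against 16.6, 14.9 and 17.8 TPM in Col. The groups were far apart, and every h3.3ko library was below every Col library. The log2 fold change was -1.44 ± 0.13 (adjusted p = 1.4e-11), and the call held under each setting tried, from -1.58 with a pseudocount of 0.1 TPM to -1.08 under quantile normalization. At S24h it had 8.56, 8.86 and 6.78 TPM in h3.3ko and 19.6, 14.6 and 20.1 TPM in Col, a log2 fold change of -1.07 ± 0.13 (adjusted p = 6.29e-09). That call was lost without h3.3ko S24h replicate 3, at -0.96, without Col S24h replicate 3, at -0.99, and when storage protein genes were removed, at -0.83. It was also lost at -0.98 under median-of-ratios scaling and -0.96 under quantile normalization. At MS it had 2.12, 2.23 and 1.51 TPM in h3.3ko and 4.01, 4.66 and 3.58 TPM in Col, and the log2 fold change of -0.79 ± 0.13 became a call at -1.04 with a pseudocount of 0.1 TPM. By G24h the libraries overlapped, with 8.28, 8.74 and 6.40 TPM in h3.3ko and 8.46, 9.17 and 9.62 TPM in Col, and the difference of -0.20 ± 0.13 was not past the test (adjusted p = 0.139).

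No member of the HIRA complex was called between the genotypes at any time point, whereas under quantile normalization UBN1 at 1.10 and CABIN1 at 1.08 were called higher in h3.3ko at G24h. HIRA, the WD40 scaffold of the complex, differed past the adjusted p only at S12h, with 7.94, 6.51 and 8.05 TPM in h3.3ko and 11.5, 11.2 and 12.8 TPM in Col and a log2 fold change of -0.60 ± 0.10 (adjusted p = 4.41e-06). At the other 5 time points its libraries overlapped between the genotypes, and the log2 fold changes lay between -0.08 and 0.12. CABIN1, a further subunit, had 2.46, 2.23 and 1.85 TPM in h3.3ko and 3.70, 4.62 and 3.72 TPM in Col at MS. It was lower in all h3.3ko libraries there, by -0.66 ± 0.10 on the log2 scale, and at G24h the order had turned, with 7.68, 8.48 and 6.70 TPM in h3.3ko and 4.35, 6.22 and 5.76 TPM in Col and a difference of 0.43 ± 0.10. UBN1 and UBN2 encode ubinuclein-like subunits. UBN1 had 13.1, 15.1 and 13.3 TPM in h3.3ko and 9.59, 9.31 and 10.3 TPM in Col at G24h, without overlap and with a log2 fold change of 0.47 ± 0.10. UBN2 was lower in h3.3ko at S12h by -0.50 ± 0.09, with 5.48, 4.83 and 4.97 TPM in h3.3ko and 8.11, 6.97 and 7.86 TPM in Col, and its log2 fold changes were positive at the other 5 time points. HIRA lies on chromosome 3 from 16115498 to 16121534, UBN1 on chromosome 1 from 7573830 to 7578963, UBN2 on chromosome 1 from 29051498 to 29056431, and CABIN1 on chromosome 4 from 15831163 to 15841656. CABIN1 overlaps CCD8 on the opposite strand by 330 bp, and CCD8 averaged at most 0.50 TPM in any group.

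Against mature seeds of the same genotype, 35 of the 50 member tests at the 5 later time points were called higher in h3.3ko and 28 of 50 in Col, and 0 were called lower in either. Over all genes the shares called higher were 45.5% in h3.3ko and 48.4% in Col, and those called lower were 2.50% and 8.07%. On the TPM scale the typical gene itself was higher at every later time, with an all-gene median of 1.01 in h3.3ko and 1.39 in Col at G24h. Median-of-ratios scaling reduced this shift to 0.06 in h3.3ko and 0.26 in Col, and under it 8 member tests were called higher and 3 lower in h3.3ko, and 11 higher and 4 lower in Col. By time point, that scaling called 2261 to 3494 of all 19052 genes higher and 2251 to 3655 lower in h3.3ko. In Col it called 2567 to 6700 higher and 2857 to 4683 lower. Changes over time are therefore given below on both scales.

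ASF1B, FAS1 and FAS2 were called higher at G24h than at MS in both genotypes on both of these scales. In the same comparison, 9604 of all 19052 genes were called higher in h3.3ko and 11301 in Col on the TPM scale. Under median-of-ratios scaling, 3329 were called higher in h3.3ko and 6700 in Col. FAS1 was higher by 1.61 in h3.3ko and 3.82 in Col on the log2(TPM + 1) scale, and by 1.22 and 3.22 under median-of-ratios scaling. FAS2 was higher by 1.80 in h3.3ko and 3.25 in Col, and by 1.29 and 2.83 under median-of-ratios scaling. With 0 reads in mature Col seeds, FAS2 was at least 108-fold higher in Col at G24h, set against the floor of 3 reads per library. ASF1B was higher by 2.13 in h3.3ko and 3.25 in Col, and by 1.03 and 2.07 under median-of-ratios scaling. In h3.3ko these 3 calls were lost under quantile normalization, at 0.83 for FAS1, 0.90 for FAS2 and 0.89 for ASF1B.

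On the TPM scale UBN1 was at G24h near its level in mature seeds. It changed by 0.06 in h3.3ko and -0.33 in Col from MS to G24h on the TPM scale, neither called, and by -1.28 in h3.3ko and -1.82 in Col under median-of-ratios scaling, both called lower. ASF1A and MSI1 were called higher at G24h in h3.3ko by 1.02 and 1.08 on the TPM scale and were at -0.33 and -0.30 under median-of-ratios scaling, so their direction in h3.3ko depends on the scale. In Col, ASF1A was at 0.60 on the TPM scale and -0.94 under median-of-ratios scaling. MSI1 in Col was called higher at 1.94 on the TPM scale and was not called at 0.39 under median-of-ratios scaling. Without h3.3ko MS replicate 3 the ASF1A value was 0.98, and without h3.3ko G24h replicate 3 it was 0.94, neither called. HIRA was at 0.81 in h3.3ko and 0.90 in Col, and at -0.41 and -0.48 under median-of-ratios scaling, and the Col value was called at 1.02 without Col G24h replicate 1. ATRX was called higher at G24h by 1.58 in h3.3ko and stood at 0.99 in Col, with 0.50 in h3.3ko and -0.38 in Col under median-of-ratios scaling, and its Col value was called at 1.07 without Col MS replicate 2 and at 1.04 without Col G24h replicate 1.

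Between G12h and G24h, where the all-gene median moved by -0.14 in h3.3ko and 0.02 in Col, FAS1 and FAS2 were the only members called, and only in Col. In Col, FAS1 was higher at G24h by 1.31 ± 0.09 (adjusted p = 1.47e-14) and FAS2 by 1.11 ± 0.10 (adjusted p = 5e-11, limma), with 11.4% of all genes called higher. FAS1 had 5.35, 5.17 and 5.38 TPM in Col at G12h, all under the Col libraries at G24h. FAS2 had 4.08, 3.63 and 2.67 TPM there, and its call was lost at 0.97 without Col G12h replicate 3 and at 0.93 under quantile normalization. In h3.3ko no member was called over the same step, where 0.766% of all genes were called, and FAS1 had 3.96, 4.23 and 4.28 TPM at G12h, above its 3 libraries at G24h. The log2 change in h3.3ko was -0.52 ± 0.09 for FAS1 (adjusted p = 1.28e-05) and -0.30 ± 0.10 for FAS2 (adjusted p = 0.0209). Under median-of-ratios scaling the h3.3ko changes were -0.36 for FAS1 and -0.14 for FAS2, and the Col changes were 1.28 for FAS1 and 1.06 for FAS2.

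**Figure D3:**
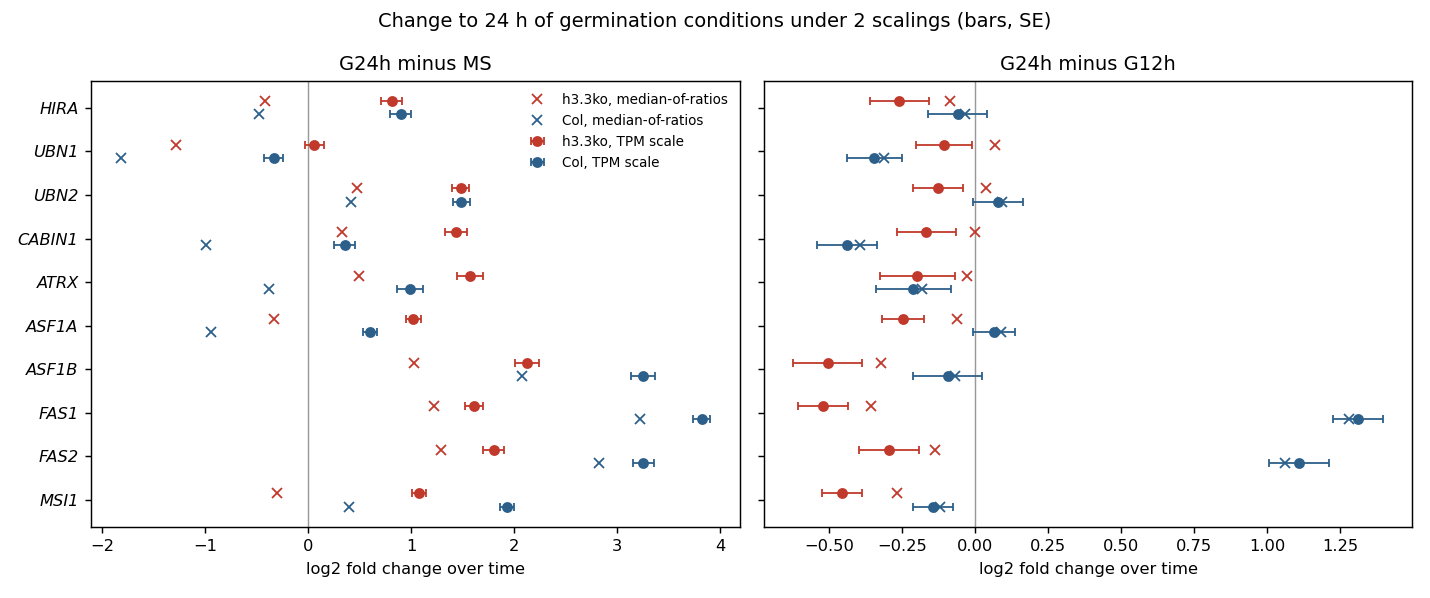
Log2 change of each gene from MS to G24h (left) and from G12h to G24h (right) in h3.3ko (red) and Col (blue), as circles with the SE on the log2(TPM + 1) scale and as crosses under median-of-ratios scaling. FAS1 and FAS2 lie at 1.31 and 1.11 in Col on the right and below 0 in h3.3ko, and on the left the crosses of UBN1 lie below -1 in both genotypes.

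The difference between the genotypes in these changes was tested with interaction terms, and 7 of 30 member tests were called, against 32.8% of all such tests over all genes. From G12h to G24h the change in h3.3ko minus that in Col was -1.83 ± 0.12 for FAS1 (adjusted p = 3.71e-14) and -1.40 ± 0.14 for FAS2 (adjusted p = 8.97e-10), with 13.8% of genes called lower. From MS to G24h it was -2.21 ± 0.12 for FAS1, -1.45 ± 0.14 for FAS2 and -1.13 ± 0.17 for ASF1B, with 31.2% of genes called lower, and 1.08 ± 0.14 for CABIN1, with 13.4% called higher. From MS to S48h it was 1.11 ± 0.10 for ASF1A, with 19.5% called higher. The CABIN1 value was 0.997 without Col MS replicate 2 and 0.95 without Col G24h replicate 1, and the ASF1B value was -0.997 without Col MS replicate 3, none of them called. The ASF1B value was also lost at -0.79 under quantile normalization, and that of ASF1A at 0.997 under median-of-ratios scaling, 0.97 under quantile normalization and 0.90 when storage protein genes were removed. The 2 interactions from MS share the MS libraries, and both interactions that end at G24h share those of G24h.

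Profiles over the 12 groups were compared by Pearson's r of group means of log2(TPM + 1), as descriptions over 12 points that share libraries. Among the members, HIRA was most like UBN2 (0.95) and MSI1 (0.93), and FAS2 was least like UBN1 (-0.49). Over 16242 other genes, the most like FAS1 were ABCI17 (0.98) and AT1G63010 (0.98), and the most like FAS2 were AT3G48490 and AT5G57700 (0.99 each). For HIRA they were SMU2 and AT5G05520, for UBN1 AT3G15351 and AT5G62910, for UBN2 SWI3A and PAPS2, and for CABIN1 AT5G16160 and AT2G17930. For ATRX they were AT1G67170 and AT2G28540, for ASF1A RAP74 and AT2G01690, for ASF1B AT2G27460 and AT5G43100, and for MSI1 PUM24 and AT3G21540. The r of these 20 genes ran from 0.95 to 0.99.

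Other genes of histone supply and replication were counted from lists. Of 9 replication genes, which code for the sliding clamp PCNA, the MCM2 to MCM7 helicase and the ribonucleotide reductase subunit TSO2, all 9 were called lower in h3.3ko at G24h, with a list median of -1.95 beside -0.39 over all genes, of which 29.4% were called lower, and 0 were called at MS. At S12h, S24h, S48h and G12h 1, 2, 1 and 1 of them were called lower and 0 higher. Of all genes, 14.6%, 16.1% and 17.8% were called lower at S12h, S24h and S48h, and 3347 of 19052 at G12h. PCNA1 averaged 13.8 ± 0.22 TPM in h3.3ko and 146 ± 3.13 TPM in Col at G24h, a log2 fold change of -3.31 ± 0.14. MCM7 followed at -2.35 ± 0.11 and TSO2 at -2.28 ± 0.08. TSO2 was further below Col during stratification, by -4.05 at S12h, -4.45 at S24h and -3.98 at S48h, values chosen after they were seen. From G12h to G24h the interaction was called lower for all 9, with 13.8% of all genes. The E2F words stood before 5 of these 9 genes, against 2.8% of the windows of all nuclear genes. Among the lists counted below, they stood before 1 of 11 other histone chaperones, 1 of 4 MSI1 paralogues and 0 of 5 H3.1 genes. A link of the words with these changes was not tested.

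Of 11 other histone chaperones, 5 were called lower in h3.3ko at S24h and 5 at S48h, with list medians of -0.91 at both times beside 0.00 over all genes, and 0 were called higher at any time point. Of all genes, 16.1% were called lower at S24h and 17.8% at S48h. The 5 were the same genes at both times, named after their values were seen, NRP1, NRP2, NAP1;1, NAP1;2 and NAP1;3, which code for H2A-H2B chaperones of the NAP1 family. At MS only SPT16, a subunit of the FACT complex, was called, with 12.1 ± 1.46 TPM in h3.3ko and 27.5 ± 3.49 TPM in Col. At G24h NAP1;3 and TSK were called lower, both named after their values were seen, and 0 of the 11 were called higher. Of the 4 MSI1 paralogues, 2 were called lower at S24h, 3 at S48h and 2 at G24h, where 29.4% of all genes were. Of the 5 H3.1 genes, the substrate genes of CAF-1, 5 were called higher in h3.3ko at MS and 5 at S48h, and at G24h 0 were called higher and 3 lower. Of all genes, 8.55% were called higher at MS and 17.8% at S48h. Summed, the H3.1 genes were at 902 ± 75.9 TPM in h3.3ko and 1727 ± 59.1 TPM in Col at G24h, and at 678 ± 13.7 TPM in h3.3ko and 44.2 ± 1.44 TPM in Col at MS. Of the 3 H3.3 genes, 2 were called lower in h3.3ko at MS, with 10.6% of all genes, and 3 at G24h. Reads of near-identical H3 copies can be split by the counting, so single copies are uncertain.

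**Figure D4:**
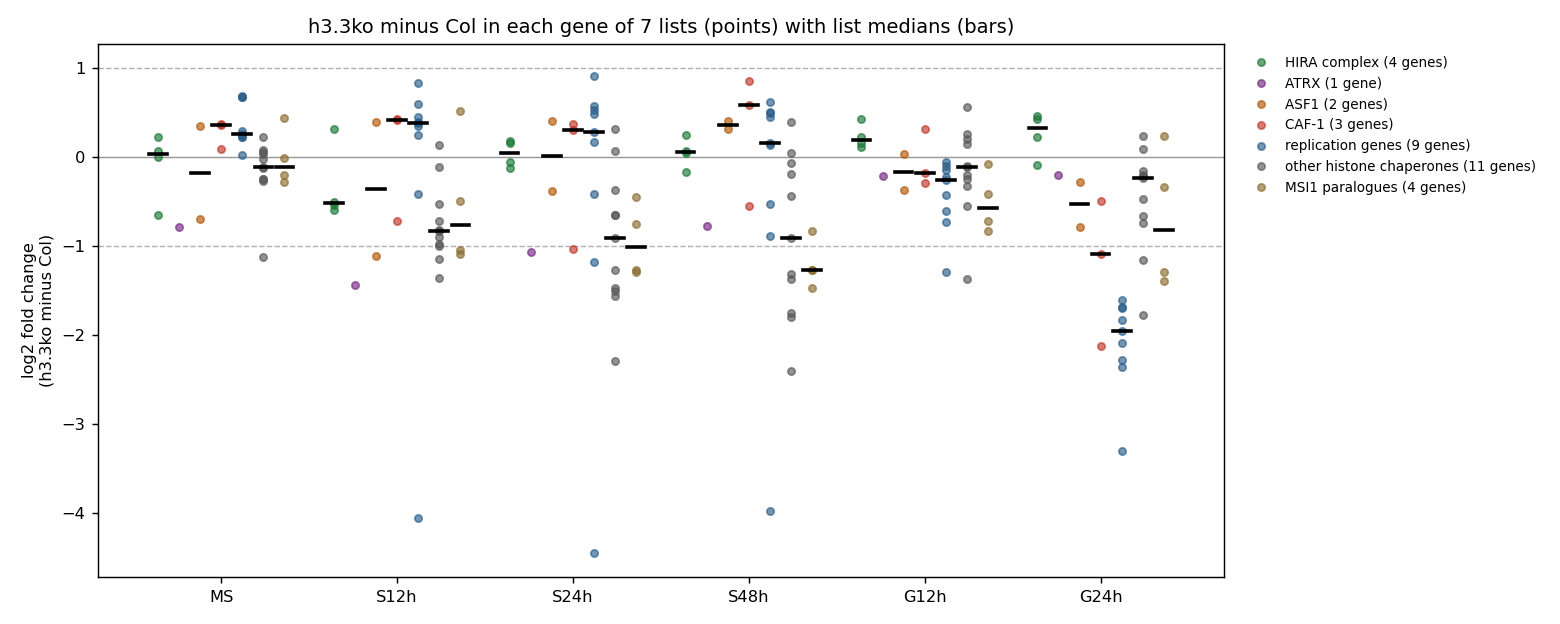
Log2 fold change of h3.3ko minus Col (vertical axis, log2(TPM + 1) scale) for each gene of 7 lists at the 6 time points, with list medians as black bars and the threshold of 1 dashed. At G24h all 9 replication genes lie below -1 with a median of -1.95, FAS1 lies at -2.12, and the 4 genes of the HIRA complex lie between -0.08 and 0.47.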

How the data were processed

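RNA from whole seeds was sequenced in 36 libraries (12 groups of 3 biological replicates per the study's methods). The deposited values are TPM, which the authors made from reads trimmed with fastp 0.20.1, mapped to TAIR10 with HISAT2 2.1.10 and counted per gene with HTSeq 0.11.2. They tested with DESeq2 1.26.0, and the fold and adjusted p thresholds used here follow theirs. TPM are not counts, so limma 3.58.1 in R 4.3.3 was fitted to log2(TPM + 1) with a variance trend and 12 group means over the 19052 genes with at least 1 TPM in at least 3 libraries, with Benjamini-Hochberg adjustment. Whole reads came back from TPM, gene span and library for 27440 of 27445 nuclear genes (99.98%, tolerance 0.02 reads), which gave depths, the floor of 3 reads and the voom fit over 18888 genes. Spans, symbols and sequences are from RefSeq TAIR10.1, whose gene spans equal those the TPM imply, and all 27445 nuclear identifiers matched. For levels compared between genes, reads were divided by exonic length and scaled to 1000000.

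The genes named are the 10 members, the 2 most like each by Pearson's r, and, from the other chaperone, MSI1 paralogue and replication lists pooled, up to 3 called genes with the largest change in each direction at MS and G24h. Further genes named after their values were seen are marked so. The members and lists were chosen with earlier results of these data known. Tried were a pseudocount of 0.1 TPM, no filter, a mean of at least 5 TPM, median-of-ratios scaling, quantile normalization, storage protein genes left out, voom, a replicate block, the compared groups alone, and each library left out. Tests with 3 against 3 libraries of a single gene cannot go below p = 0.1 by permutation, so none was run. Figures were drawn with matplotlib 3.10.9.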

Additional observations from a re-analysis of the deposited data

Results flagged for a closer look

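In 7 of 30 member tests the change over time differed between the genotypes by limma's interaction term (change in h3.3ko minus change in Col, log2(TPM + 1) scale). Over all genes, 32.8% of such tests were called. The calls of ASF1A, CABIN1 and ASF1B below were each lost under another scaling or with a library left out. From MS to S48h the value was 1.11 for ASF1A (adjusted p = 3.46e-11). From MS to G24h it was 1.08 for CABIN1 (adjusted p = 6.13e-08), -1.13 for ASF1B (adjusted p = 3.96e-07), -2.21 for FAS1 (adjusted p = 7.86e-17) and -1.45 for FAS2 (adjusted p = 1.37e-10). From G12h to G24h it was -1.83 for FAS1 (adjusted p = 3.71e-14) and -1.40 for FAS2 (adjusted p = 8.97e-10). The FAS2 values from MS rest on 0 reads in mature Col seeds and depend on the pseudocount. Groups of 3 libraries were too small to look for single libraries standing apart.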

How the results depend on the processing

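Between the genotypes, the 6 lower calls of members were 2 under median-of-ratios scaling, 2 under quantile normalization, 2 without the storage protein genes and 3 by voom on recovered reads, and ranged from 5 to 6 with any library left out. The 0 higher calls were 6 with a pseudocount of 0.1 TPM, 2 under quantile normalization (UBN1 at 1.10 and CABIN1 at 1.08, both at G24h) and 6 by voom, and 0 to 0 with a library left out. Against MS, the 35 higher calls in h3.3ko were 8 under median-of-ratios scaling, 5 under quantile normalization and 11 by voom (33 to 36 with a library left out), and the 28 in Col were 11, 11 and 15 (28 to 30). The 0 lower calls were 3, 2 and 3 in h3.3ko and 4, 3 and 6 in Col (0 to 0 in both with a library left out). Over all genes, the higher calls at G24h against MS went from 9604 to 3329, 2902 and 4717 in h3.3ko. In Col they went from 11301 to 6700, 5398 and 7584. The lower calls over all genes went from 671 to 3258, 2881 and 4016 in h3.3ko and from 1795 to 4683, 5610 and 5273 in Col. From G12h to G24h the 2 calls were 0 with a mean of at least 5 TPM, which leaves FAS1 and FAS2 untested, and 1 under quantile normalization (1 to 2 with a library left out). The 7 interaction calls were 3 with a mean of at least 5 TPM for the same reason (6 to 7 with a library left out). From MS to G24h the sign of a value called in one of the fits turned in h3.3ko for UBN1 under median-of-ratios scaling (-1.28), quantile normalization (-1.14) and voom (-1.36), for ASF1A (-0.33, -0.057 and -0.35) and for MSI1 under median-of-ratios scaling (-0.30) and voom (-0.32). In Col it turned for UBN2 under quantile normalization (-0.49) and for CABIN1 under quantile normalization (-1.56) and voom (-1.17). The FAS2 interaction from MS to S48h was -3.19 by voom. Another 64 values called in neither fit changed sign under settings other than leaving out a library and 36 with a library left out, among them HIRA in both genotypes and CABIN1, ASF1A and ATRX in Col from MS to G24h under median-of-ratios scaling. The cause of these turns was not tested. For single members, 1144 values came from settings other than leaving out a library. Of these, 1065 were called in both fits with the same sign or in neither fit. Another 40 lost a call and 27 gained one with the sign kept, and 12 changed sign with a call in at least 1 fit. Of 960 with a library left out, 9 lost and 3 gained a call.

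Among all genes called between the genotypes, the share higher in h3.3ko moved with the scaling. At MS it was 44.5%, and 72.3% when storage protein genes were removed. At S12h it was 42.8%, and 64.7% by voom. At S24h 3075 genes were called higher and 3073 lower, and 4009 and 2261 when storage protein genes were removed. At S48h the share was 50.1%, and 60.2% when they were removed. Under quantile normalization it was 47.0% at G12h, against 36.7%, and 49.3% at G24h, against 24.7%. At MS 1629 genes were called higher and 2029 lower, but 3344 and 3199 with a pseudocount of 0.1 TPM and 4094 and 2860 by voom. At G24h 1835 and 5598 genes became 1452 and 3301 with a mean of at least 5 TPM.

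With the replicate number as a block, all 8 counts of member calls were as without it, 6 lower calls between the genotypes among them. Same-numbered libraries of the genotypes deviated together in every pair only at S12h (r of 0.25, 0.28 and 0.19), where each h3.3ko library correlated best with the Col library of its number, and the labels do not say what a number marks. FAS1 and FAS2 are limited by depth before germination conditions, with at most 95 and 41 reads in a library.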
